A study of Mus musculus with 4 samples.

Results

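The genes described here are 9 secreted factors, receptors and adhesion molecules by which marrow stroma holds and feeds blood stem and progenitor cells. They are the ligands Cxcl12, Kitl and Angpt1, the receptors Cxcr7 (now named Ackr3), Pdgfra and Pdgfrb, and the adhesion molecules Vcam1, Cdh2 and Cdh11. They were chosen by symbol, and each was found in 1 of the 22700 rows of every deposited table. All 9 reached 20 normalised reads, the level minimum for a comparison, in at least 1 of the 4 libraries. Cxcl12, Angpt1, Cxcr7 and Cdh11 reached it only in M-CSF libraries, and Cxcr7 only in the M-CSF db/db library, so Cxcr7 could enter the comparisons only by being higher there. For the same reason these 4 genes could enter the comparison of cultures only by being lower in GM-CSF.

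CXCL12 is a chemokine made by perivascular reticular cells and osteoblast precursors of the marrow. It retains stem cells through the receptor CXCR4, and CXCR7 binds the same ligand and removes it. KIT ligand, or stem cell factor, signals to progenitors and mast cells through KIT, and angiopoietin 1 signals through the receptor TEK. The PDGF receptors are carried by mesenchymal cells and pericytes, VCAM1 anchors leukocytes through the integrin of Itga4 and Itgb1, and the cadherins join mesenchymal cells to each other.

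The study compared bone marrow of 12-week-old male db/db mice, diabetic and labelled BKS.Cg-m+/+leprdb/J, with that of db/+ littermate controls, labelled BKS.Cg-m+/+leprdb+/J. All donors thus carried at least 1 copy of the db allele, a splice mutation of the leptin receptor gene Lepr. Marrow cells of each genotype grew for 7 to 8 days with M-CSF at 10 ng/ml, the growth factor of macrophages, or with GM-CSF at 20 ng/ml, which also gives cells with dendritic features. Each of the 4 groups had 1 library of ribosome-depleted total RNA, sequenced in read pairs. The sources used here do not say whether animals were pooled for a library. The labels name no sort or gate before or after culture.

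Each library held 25603389 to 28622703 reads as recovered from the deposited values. Levels are given as normalised reads, which are reads divided by a factor for the library, and 3 read pairs came to 5.23 to 6.73 normalised reads. Fold changes in log2 were taken on log2(normalised reads + 5), which understates the change of low genes. With 1 library per group no pair of libraries had a replicate check, so their ratios carry exact conditional 95% intervals on read pairs, which cover counting error only. The cells are labelled bone marrow macrophages, and the macrophage marker Csf1r, the M-CSF receptor, was at 120627, 105159, 33549.6 and 33103.3 normalised reads in M-CSF db/+, M-CSF db/db, GM-CSF db/+ and GM-CSF db/db, the order used throughout. Lepr was at 6.7, 21.8, 49.4 and 60.3 normalised reads, a total over all splice forms that does not check the genotype.

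In M-CSF, the db/db library exceeded the db/+ library by at least 2-fold in 5 of the 9 genes, namely Cxcl12, Cxcr7, Pdgfrb, Cdh2 and Cdh11, and lay 2-fold or more below it in 0. By the same measure 5.05% of the 13642 genes at the level minimum were higher and 0.777% lower. Cxcr7 could enter this count only by being higher in M-CSF db/db. The median log2 fold of the 9 genes was 1.39, against 0.02 over all 13642 genes. In bulk RNA, a change in the number of cells of a type and a change in RNA per cell cannot be told apart. Kitl, Angpt1 and Vcam1 had ratios near 1, so the ligands and the adhesion molecules each split into members that were higher and members that were not. In GM-CSF all 9 genes were lower, and only Kitl, Vcam1, Pdgfra and Pdgfrb had at least 20 reads in both of those libraries.

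**Figure D1:**
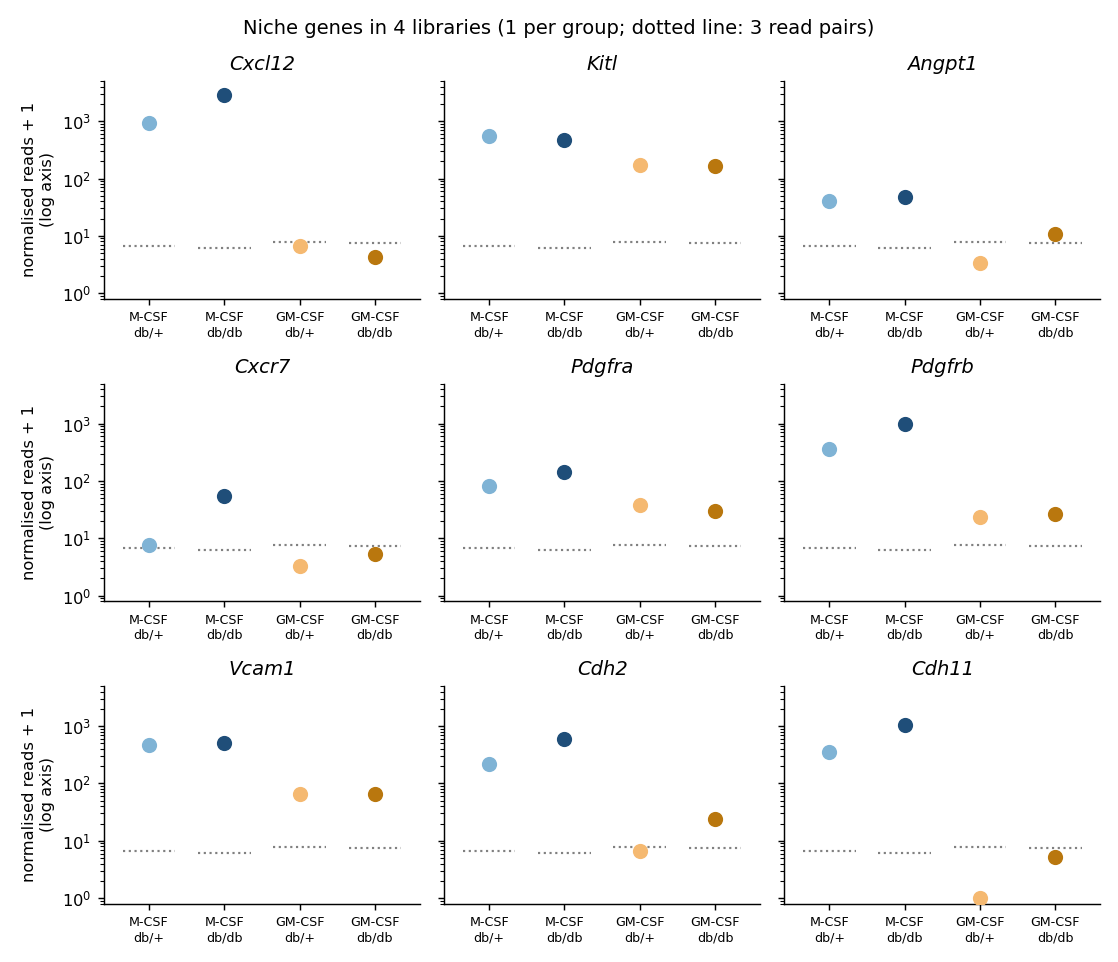
Normalised reads plus 1 (log axis) of each of the 9 genes in the 4 libraries, 1 point per library, with a dotted line at 3 read pairs. Cxcl12 stands at 922.6 and 2829.2 in M-CSF and under the dotted line in both GM-CSF libraries, while Kitl stays between 162.5 and 542.2 in all 4.

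Promoters are shown for Cxcl12 and for Cxcr7, under its current name Ackr3, the ligand and the scavenging receptor that were both higher in M-CSF db/db. Of the 9 genes, 4 matched an entry of the RefSeq promoter table for build GRCm38.p6 (Cxcl12, Ackr3, Kitl and Pdgfra). Each window holds the 250 bases before the start of transcription, 5′ to 3′ on the plus strand. It lies at chr6:117168285-117168534 for Cxcl12 and at chr1:90203730-90203979 for Ackr3. Capitals mark the motifs searched on both strands, which were the GC box with the letters GGGCGG, the box named for its letters CCAAT, the TATA box with the letters TATAAA and the hypoxia response core with the letters ACGTG. On the minus strand a GC box reads as CCGCCC.
Cxcl12: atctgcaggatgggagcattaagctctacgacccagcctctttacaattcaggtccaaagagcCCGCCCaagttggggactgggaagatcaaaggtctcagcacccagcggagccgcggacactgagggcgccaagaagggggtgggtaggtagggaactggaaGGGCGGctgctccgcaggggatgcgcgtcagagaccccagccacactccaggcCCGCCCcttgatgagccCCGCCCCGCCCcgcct
Ackr3: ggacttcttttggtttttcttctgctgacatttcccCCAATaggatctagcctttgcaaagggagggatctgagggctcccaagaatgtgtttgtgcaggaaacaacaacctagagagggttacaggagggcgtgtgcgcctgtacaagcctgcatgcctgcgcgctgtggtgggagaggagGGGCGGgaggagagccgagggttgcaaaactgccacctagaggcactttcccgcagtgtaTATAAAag
The Cxcl12 window held 5 GC boxes, 1 on the plus strand with its first base 86 bases before the start and 4 on the minus strand at 187, 33, 16 and 11 bases, the last pair overlapping. It held 0 copies of the other motifs. The Ackr3 window held 1 GC box at 68 bases, 1 CCAAT box at 214 and 1 TATA box at 8 bases before the start. The Kitl window held 3 GC boxes and 1 TATA box, and that of Pdgfra held 0 copies of any of the motifs. Among all 32851 RefSeq windows of this length, 32.7% held a GC box, 33.8% a CCAAT box, 12.4% a TATA box and 16.6% the hypoxia response core. The share of G and C was 64.4% for Cxcl12, 54% for Ackr3, 69.2% for Kitl and 54.4% for Pdgfra, against a mean of 53.2%. These matches describe letters in a window and were not tied to binding by any measurement here.

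Cxcl12 was high in both M-CSF libraries and nearly absent from both GM-CSF libraries. It was at 922.6, 2829.2, 5.6 and 3.2 normalised reads. The M-CSF ratio of db/db over db/+ was 3.07 (2.77 to 3.40), an interval well clear of 1. In GM-CSF it rested on 5 and 3 reads, both under 3 read pairs, and no fold is given.

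Kitl differed from Cxcl12 in having similar levels in both genotypes and a clear, though lower, signal in GM-CSF. It was at 542.2, 470.5, 169.4 and 162.5 normalised reads. The ratio of db/db over db/+ was 0.868 (0.732 to 1.03) in M-CSF and 0.959 (0.688 to 1.34) in GM-CSF. Both intervals include 1 and leave out a 2-fold difference in either direction, so far as counting error goes. Within each culture the 2 libraries lay closer to each other than to either library of the other culture.

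Angpt1 was a low gene throughout. It was at 39.9, 46.2, 2.3 and 9.7 normalised reads, and its M-CSF ratio was 1.16 (0.628 to 2.16). In GM-CSF the ratio of 4.32 rested on 2 and 9 reads, with an interval of 0.457 to 208 that shows no direction.

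Cxcr7 had the largest M-CSF ratio of the 9 genes and the fewest reads behind it. It was at 6.7, 53.1, 2.3 and 4.3 normalised reads, from 7 and 61 reads in M-CSF and 2 and 4 in GM-CSF. The M-CSF ratio was 7.98 (2.66 to 35.03). Its level in the M-CSF db/+ library was near the background of genes not expected in marrow: 95% of 1100 olfactory receptor genes lay at or under 3.8 normalised reads there, and at or under 2.6 in the db/db library. Both GM-CSF values were under 3 read pairs. The share of olfactory receptor genes above 0 was 46.5%, 29.5%, 9.7% and 8.2% in the 4 libraries. This background was thus more frequent in M-CSF, and it was not subtracted from any fold of low genes between cultures.

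Both PDGF receptors were higher in M-CSF db/db, Pdgfrb by more. Pdgfrb was at 365.2, 970.7, 22.4 and 25.8 normalised reads, and its M-CSF ratio was 2.66 (2.25 to 3.15). Pdgfra was at 81.8, 144.6, 37.0 and 29.1 normalised reads, with an M-CSF ratio of 1.77 (1.21 to 2.62). Both intervals leave out 1, they overlap each other, and Pdgfrb alone passed 2-fold. In GM-CSF the ratios were 1.15 (0.456 to 2.97) for Pdgfrb and 0.785 (0.353 to 1.72) for Pdgfra, so neither differed beyond counting error.

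Vcam1 was level between the genotypes in both cultures. It was at 469.9, 495.8, 63.9 and 64.6 normalised reads, with ratios of 1.06 (0.887 to 1.26) in M-CSF and 1.01 (0.584 to 1.75) in GM-CSF. The cadherins followed Cxcl12 and Pdgfrb instead.

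Cdh2, or N-cadherin, was at 218.8, 582.9, 5.6 and 22.6 normalised reads, with an M-CSF ratio of 2.66 (2.15 to 3.32). Cdh11, the cadherin of osteoblasts and fibroblasts, was at 347.2, 1056.9, 0 and 4.3, with an M-CSF ratio of 3.04 (2.58 to 3.61). Both had the higher M-CSF level in db/db. In GM-CSF, Cdh2 rested on 5 and 21 reads and its ratio was 4.03 (0.969 to 27.7), while Cdh11 was under 3 read pairs in both libraries.

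**Figure D2:**
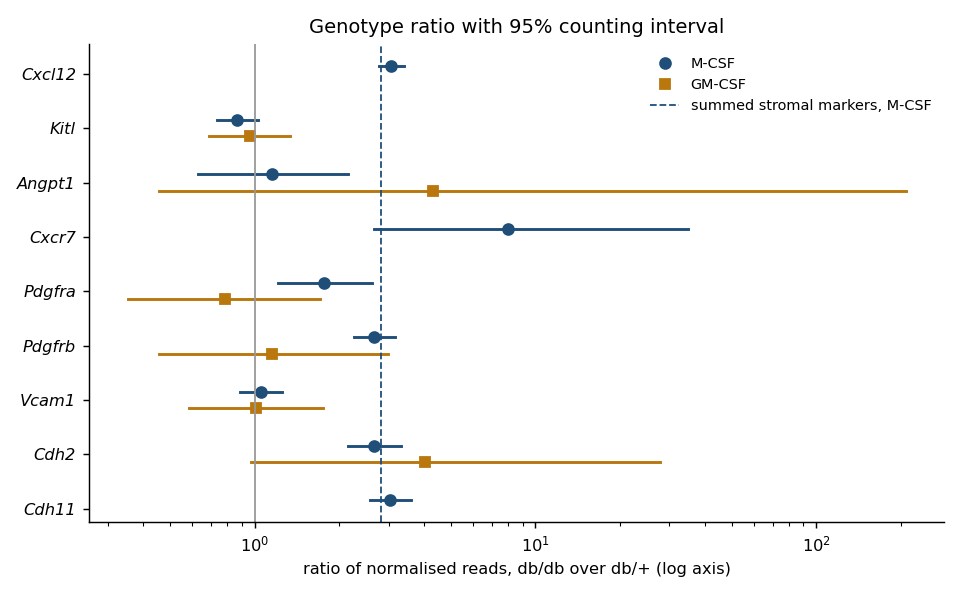
Ratio of normalised reads, db/db over db/+ (log axis), for each gene with a value over 3 read pairs in at least 1 library of that culture, with 95% counting intervals. Circles are M-CSF, squares are GM-CSF and the dashed line is the ratio of summed stromal markers in M-CSF (2.82). Cxcl12, Pdgfrb, Cdh2 and Cdh11 lie at that line, and Kitl and Vcam1 lie at 1.

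The M-CSF genotype difference of these genes was set beside markers of the cells that could carry them. The marker lists were chosen with earlier results of these data known, so their counts are descriptions. Of 15 fibroblast and stromal markers measured, none of them among the 9 genes, 13 reached the level minimum. In M-CSF db/db over db/+, 13 of those 13 exceeded 2-fold, with a median log2 fold of 1.37. Over all genes 5.05% were higher by that measure, a share that also stands beside the lists below. The summed level of the 15 markers was 25268.3, 71185.1, 19705.1 and 19565.4 normalised reads, a ratio of 2.82 in M-CSF. Col1a2, a chain of type I collagen, was at 8292.2 and 22961.7 normalised reads in the M-CSF libraries, and Postn, a matrix protein, at 3454.6 and 10631.3. Mfap5, at 9.5 and 32.2, reached the level minimum only in M-CSF db/db, so it could enter only by being higher there. Lum, at 3.8 and 4.3, and Tcf21, at 1.9 and 0, did not reach it. In GM-CSF the sum was almost all Fstl1, at 19499.7 and 19329.9, and without Fstl1 it was 23401.2, 66028.5, 205.4 and 235.5. Lum, Mfap5 and Tcf21 were at 0 in both GM-CSF libraries, joined by Col3a1 and Dcn in db/db.

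Against the stromal sum, the 9 genes separated into those that kept pace with it and those that did not. Divided by the ratio of the stromal sum, the M-CSF ratio was 1.09 (0.983 to 1.21) for Cxcl12, 1.08 (0.914 to 1.28) for Cdh11, 0.946 (0.763 to 1.18) for Cdh2 and 0.943 (0.799 to 1.12) for Pdgfrb. These 4 did not differ from the stromal sum beyond counting error of the gene. Another 4 genes were lower relative to it, Pdgfra at 0.628 (0.429 to 0.929), Angpt1 at 0.410 (0.223 to 0.765), Vcam1 at 0.375 (0.315 to 0.446) and Kitl at 0.308 (0.260 to 0.365). Per 1000 normalised reads of stromal markers, Kitl stood at 21.5 in db/+ and 6.61 in db/db, Vcam1 at 18.6 and 6.96, and Cxcl12 at 36.5 and 39.7. These quotients are not levels in stromal cells, since bulk RNA does not say which cells held the reads. In GM-CSF, where the stromal markers without Fstl1 summed to 205.4 and 235.5, Kitl was still at 169.4 and 162.5 and Vcam1 at 63.9 and 64.6. Cxcr7 came to 2.83 with an interval of 0.946 to 12.4 that includes 1. The part of the stromal markers in these differences was not tested.

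**Figure D3:**
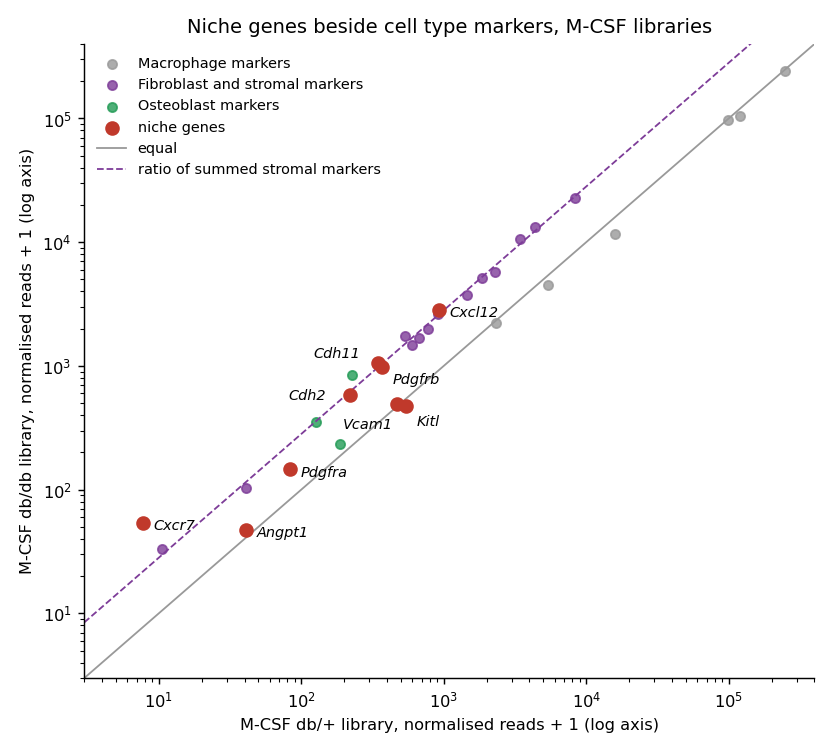
Normalised reads plus 1 of the 9 genes (red) and of fibroblast and stromal, osteoblast and macrophage markers in the M-CSF db/+ library (x, log axis) and the M-CSF db/db library (y, log axis). The solid line marks equal levels and the dashed line the ratio of the summed stromal markers (2.82). Cxcl12, Cdh11, Pdgfrb and Cdh2 lie among the stromal markers on the dashed line, while Vcam1, Kitl and Angpt1 lie by the solid line with the macrophage markers.

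Other cell types that can carry these genes gave the following M-CSF values. Of 9 smooth muscle and pericyte markers, 6 reached the level minimum, 3 of them had a db/db level 2-fold or more above db/+ and 0 one below, with a median log2 fold of 1.04. Acta2, smooth muscle actin, was at 6124.5 and 15144.8 normalised reads. Of 7 osteoblast markers, 4 reached the level minimum and 3 were higher, with a median of 1.51. Those 3 were Alpl, at 351.0 and 1049.1, Ibsp, at 227.3 and 846.1, and Sp7, at 125.5 and 353.8.

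Markers of the other cells moved less. The 6 macrophage markers summed to 493071 and 464153 normalised reads in M-CSF, a ratio of 0.941, and 0 of them were 2-fold apart. Of 10 endothelial markers 4 reached the level minimum, 0 were 2-fold apart and the median log2 fold was -0.14. Among those 4, Vwf was at 254.9 and 261.4 normalised reads and Kdr at 176.0 and 109.8. Cldn5 and Emcn did not reach the level minimum. Cldn5 was at 9.5 normalised reads in M-CSF db/+ and at 0 in the other 3 libraries, and Emcn was at 4.8, 6.1, 1.1 and 0. The 6 megakaryocyte markers, a source of Angpt1 in marrow, had a median log2 fold of 0.54 with 0 of them 2-fold apart, Pf4 at 8475.7 and 8934.8.

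**Figure D4:**
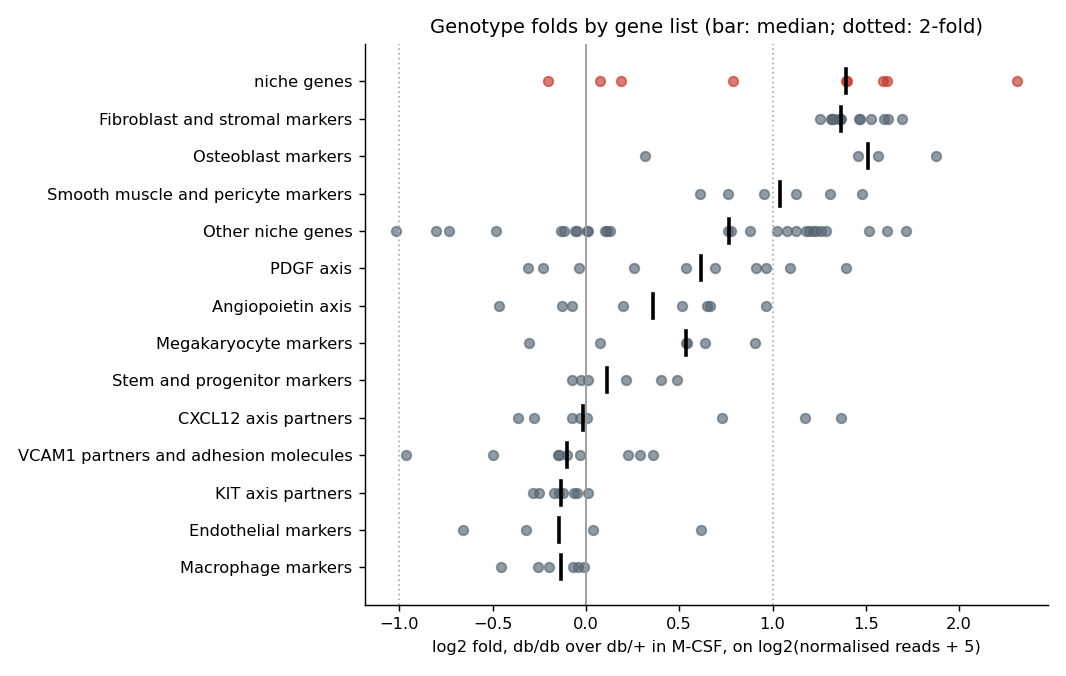
Log2 fold of db/db over db/+ in M-CSF, on log2(normalised reads + 5), for every gene of each list that reached the level minimum, 1 point per gene, with a bar at the list's median and dotted lines at 2-fold. The medians of the 9 genes (1.39), the stromal markers (1.37) and the osteoblast markers (1.51) lie right of the 2-fold line, and those of the macrophage markers (-0.13) and endothelial markers (-0.14) lie near 0.

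A wider list of 34 other niche genes had 28 at the level minimum, of which 12 were higher and 1 lower by 2-fold or more in M-CSF db/db, with a median log2 fold of 0.77. Csf1, which encodes M-CSF, was at 2485.4 and 6064.6 normalised reads, a ratio of 2.44 (2.29 to 2.60). Spp1, or osteopontin, was at 11354.9 and 25753.5. Igf1, Lpl and Gas6 lay within 0.12 log2 units of equal, at -0.05, -0.12 and -0.06. In GM-CSF Csf1 was at 3070.9 and 3134.9, a ratio of 1.02 (0.948 to 1.10).

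The partners that these ligands and receptors act on were largely level between the genotypes in M-CSF. Of 8 partners of CXCL12 at the level minimum, 2 were higher by 2-fold or more in db/db (Mmp2 and Ctsk, both proteases that cut it) and 0 lower, and the median log2 fold was -0.01. Its receptor Cxcr4 was at 8808.7 and 7267.0 normalised reads, a ratio of 0.825 (0.791 to 0.860), so it did not rise with its ligand. That interval covers counting error only. The difference was under 2-fold and did not pass the genotype test over both cultures (-0.13 ± 0.09, limma adjusted p = 0.9996). Of 8 KIT partners 0 were 2-fold apart (median -0.13), and Kit was at 105.6 and 106.3. Of 9 VCAM1 partners and adhesion molecules 0 were 2-fold apart, the median was -0.10, Itga4 was at 9695.1 and 8722.2 and Itgb1 at 18753.9 and 22949.5.

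The angiopoietin receptor Tek was under 3 read pairs in all 4 libraries, at 1.9, 3.5, 2.3 and 1.1 normalised reads, and 0 of 8 genes of that axis were 2-fold apart. On the PDGF axis 2 of 10 genes (Pdgfd and Plat) passed 2-fold upwards in M-CSF db/db and 0 downwards, with a median of 0.61. Pdgfd reached the level minimum only in M-CSF db/db, so it could enter only by being higher there. The receptors' ligands differed among themselves. Pdgfb was at 3154.0 and 2543.4 normalised reads, a ratio of 0.806 (0.751 to 0.866). Pdgfa was at 128.4 and 188.2 (1.47, 1.07 to 2.02), Pdgfc at 245.4 and 465.3 (1.90, 1.53 to 2.36) and Pdgfd, a ligand of PDGFRB, at 17.1 and 53.1 (3.10, 1.44 to 7.42). Of 7 other cadherins and catenins 1 was higher by 2-fold or more in db/db and 0 lower, with a median of 0.22. It was Cdh3, or P-cadherin, at 5.7 and 23.5 normalised reads, which also reached the level minimum only in M-CSF db/db.

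In GM-CSF, 2 of the 9 genes were higher by 2-fold or more in db/db (Angpt1, log2 fold 1.01, and Cdh2, 1.38) and 0 were lower, beside 0.586% and 0.476% of all genes tested. Both rested on the few reads given above, with intervals that include 1, and with 20 as the pseudocount neither passed. The median log2 fold was 0.17 over the 9 genes and 0.01 over all genes. The stromal markers without Fstl1 gave 205.4 and 235.5 normalised reads in these libraries.

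For the 4 genes with at least 20 reads in each GM-CSF library, the genotype ratio in M-CSF was divided by that in GM-CSF. The quotient was 0.905 (0.620 to 1.32) for Kitl, 1.04 (0.573 to 1.83) for Vcam1, 2.25 (0.922 to 5.62) for Pdgfra and 2.31 (0.877 to 5.93) for Pdgfrb. All 4 intervals include 1. With 1 library per group no interaction could be tested.

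All 9 genes were lower in GM-CSF than in M-CSF cultures. In the db/+ libraries 8 of the 9 were at least 2-fold lower, with Cxcr7 outside, and 0 higher, beside 15.7% of all genes lower and 12% higher. In the db/db libraries 9 of the 9 were at least 2-fold lower and 0 higher, beside 15.8% lower and 11.3% higher. For Cxcl12, Angpt1, Cxcr7 and Cdh11 the level minimum fixed the direction, so both counts are descriptions. Kitl, Vcam1, Pdgfra, Pdgfrb and Cdh2 reached the minimum in both cultures. The medians were -2.79 and -2.85 on the log2 scale, against 0.03 and 0.01 over all genes. These comparisons share their libraries with those of the genotypes. Scaling each library by its total of reads alone moved the median of all genes by -0.20 in db/+ and -0.23 in db/db, and left the counts at 8 and 9.

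Cxcl12 and Cdh11 were close to 0 in GM-CSF. Cxcl12 was 165-fold lower in GM-CSF db/+ (51.1 to 993) and 877-fold lower in GM-CSF db/db (205 to 12196), folds that rest on 5 and 3 GM-CSF reads, both under 3 read pairs. Cdh11 was at least 51.6-fold lower in db/+, where it was at 0 and was set to 3 read pairs (the counting interval starts at 41.5-fold), and 246-fold lower in db/db (67.7 to 2033). Kitl was 3.20-fold lower in db/+ (2.48 to 4.18) and 2.90-fold lower in db/db (2.24 to 3.79), which in db/db was the smallest culture ratio of the 9 genes.

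Between these ends, Pdgfrb was 16.3-fold lower in db/+ (8.66 to 34.5) and 37.6-fold lower in db/db (21.4 to 73.2). Cdh2 was 39.0-fold lower in db/+ (11.9 to 238) and 25.8-fold lower in db/db (14.1 to 53.2). Vcam1 was 7.35-fold lower in db/+ (4.98 to 11.2) and 7.68-fold lower in db/db (5.26 to 11.6). For all 3 of these genes, and for Kitl, the intervals of the 2 genotypes overlap.

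For Pdgfra the culture ratio was 2.21-fold lower in db/+ (1.23 to 4.17) and 4.98-fold lower in db/db (2.78 to 9.62). That of Angpt1 was 17.8-fold lower in db/+ (2.86 to 736) and 4.77-fold lower in db/db (1.74 to 17.1), and that of Cxcr7 was 2.97-fold lower in db/+ (0.269 to 150) and 12.4-fold lower in db/db (3.14 to 107). These folds rest on few GM-CSF reads (2 and 9 for Angpt1, 2 and 4 for Cxcr7), and the interval of Cxcr7 in db/+ includes 1.

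The culture effect could be tested across both genotypes in an additive limma model, in which the pair of genotypes stands in for replicates. All 9 genes fell in GM-CSF at an adjusted p under 0.05, beside 27.3% of all genes that fell and 29.8% that rose. For Cxcl12, Angpt1, Cxcr7 and Cdh11 the level minimum fixed that direction, so the count of 9 is a description, and Kitl, Vcam1, Pdgfra, Pdgfrb and Cdh2 are the 5 that could have gone either way. The estimate was -7.44 ± 0.35 (log2, SE) for Cxcl12 (limma adjusted p = 1.69e-10), -6.49 ± 0.31 for Cdh11 (2.02e-10), -4.41 ± 0.27 for Cdh2 (3.77e-09) and -4.37 ± 0.28 for Pdgfrb (4.66e-09). It was -2.82 ± 0.19 for Vcam1 (1.22e-08) and -1.58 ± 0.16 for Kitl (8.87e-07). The low genes passed by less: Angpt1 fell by 2.21 ± 0.46 (9.17e-04), Pdgfra by 1.59 ± 0.33 (8.03e-04) and Cxcr7 by 1.66 ± 0.59 (0.0269). Without a level minimum 0 of the 9 passed limma, with Vcam1 nearest at an adjusted p of 0.0628, while 8129 genes had an unadjusted p under 0.05.

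**Figure D5:**
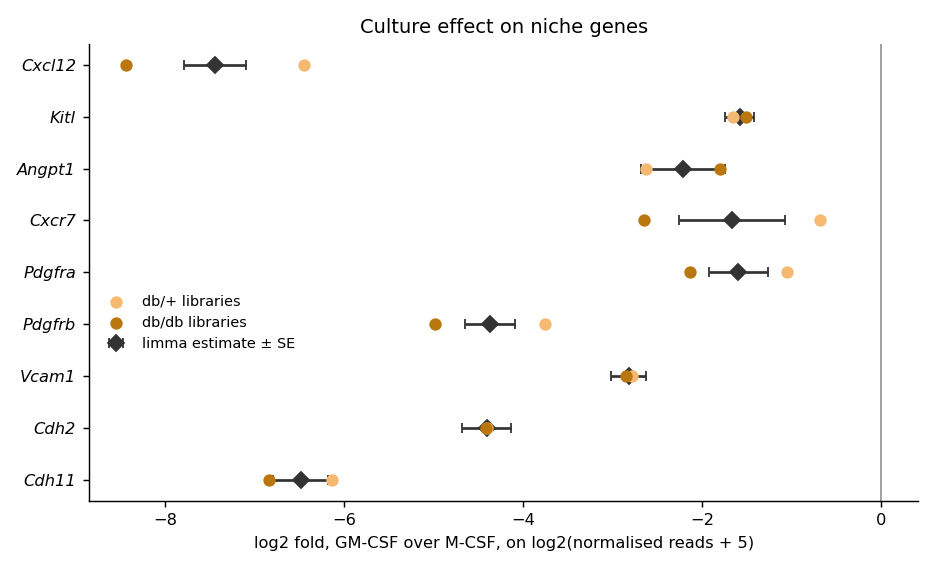
Log2 fold of GM-CSF over M-CSF on log2(normalised reads + 5) for each gene, as a point for the db/+ and a point for the db/db libraries, with the limma estimate ± SE over both genotypes. All points lie left of 0, Cxcl12 farthest (-7.44 ± 0.35), and Cdh2, Vcam1 and Kitl have nearly the same fold in both genotypes.

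Stromal and osteoblast markers fell with these genes. Of the 13 stromal markers tested with limma, 12 fell and 1 rose (Fstl1), and of 4 osteoblast markers 3 fell and 0 rose. The 6 megakaryocyte markers all fell, while 3 of 4 endothelial markers rose (Vwf, Kdr and Cdh5) and 0 fell. The part of these cell types in the culture effect was not tested.

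Kit, the receptor of KIT ligand, went the other way from its ligand between cultures. It rose by 4.54 ± 0.13 on the log2 scale in GM-CSF (limma adjusted p = 5.58e-13), with 105.6, 106.3, 2614.4 and 2540.0 normalised reads. Of the 8 KIT partners 6 fell and 1, Kit itself, rose. Cxcr4 was at 7109.7 and 7160.5 normalised reads in GM-CSF and did not pass the test (-0.17 ± 0.09, limma adjusted p = 0.139). Of the 8 CXCL12 partners 2 rose and 3 fell.

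Itga4, the integrin chain that binds VCAM1, fell by 1.67 ± 0.09 (limma adjusted p = 5.51e-10), to 2801.7 and 2968.1 normalised reads in GM-CSF. Its partner chain Itgb1 rose by 0.45 ± 0.10 (adjusted p = 0.00185, limma), to 28461.1 and 28347.2. Of the 9 VCAM1 partners and adhesion molecules 4 rose and 3 fell, so the list had no common direction.

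The PDGF ligands split by culture. Pdgfb fell by 3.84 ± 0.11 (limma adjusted p = 1.25e-12), from 3154.0 and 2543.4 to 200.8 and 186.1 normalised reads. Pdgfd fell by 2.84 ± 0.58 (7.40e-04) to 0 in both GM-CSF libraries, a direction that the level minimum fixed. Pdgfc rose by 1.25 ± 0.18 (3.82e-05) to 837.8 and 788.6, and Pdgfa by 0.97 ± 0.20 (7.91e-04) to 325.3 and 294.8. Over the whole axis 5 of 10 genes rose and 4 fell. Among the cadherins and catenins 4 of 7 rose and 2 fell, with Cdh1, or E-cadherin, at 16.2, 26.1, 769.4 and 780.0 normalised reads (4.92 ± 0.23, limma adjusted p = 1.37e-10). Cdh1 was thus high where Cdh2 and Cdh11 were low.

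Of the other niche genes 16 of 28 fell in GM-CSF and 9 rose by limma, beside 27.3% of all genes that fell and 29.8% that rose. Of those that fell, only Il15, Eng, Ly6a, Lifr, Igf1 and Gas6 reached the level minimum in a GM-CSF library. For the rest the level minimum fixed the direction, so the count is a description. Spp1 was among those that rose, at 192050 and 188741 normalised reads, and Gas6, a ligand of the TAM receptors, was among those that fell, at 13320.9, 12807.0, 1094.7 and 1111.3. In the angiopoietin axis 5 of 8 genes fell and 1 rose, and the level minimum fixed the fall of Angpt4 and Angptl1.

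The genotype effect over both cultures was tested in the same limma model. Of the 9 genes 0 passed (0 higher and 0 lower), beside 0.00733% of all genes higher, which is 1 gene (the stromal marker Sparc), and 0% lower. At an unadjusted p under 0.05, limma had 603 genes. Of the 9 genes Cdh2 came nearest, with an estimate of 1.39 ± 0.27 (log2, SE) and an adjusted p of 0.345, followed by Cdh11 at 1.24 ± 0.31 (0.888) and Pdgfrb at 0.78 ± 0.28 (0.941). The estimate of Cxcl12 was 0.62 ± 0.35 (limma adjusted p = 0.9996), with both of its GM-CSF values under 3 read pairs. Those of Kitl, -0.13 ± 0.16, and Vcam1, 0.05 ± 0.19, were within their standard errors of 0.

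The count test gave another answer. With edgeR's quasi-likelihood test on the recovered reads, 4 of the 9 genes were higher in db/db at an adjusted p under 0.05, beside 0.74% of all genes. They were Cxcl12 (log2 fold 1.53, adjusted p = 6.83e-04), Cdh11 (1.62, 0.00194), Cdh2 (1.47, 0.00803) and Pdgfrb (1.17, 0.0253). In GM-CSF the number of reads behind them was 5 and 3 for Cxcl12, 0 and 4 for Cdh11, 5 and 21 for Cdh2 and 20 and 24 for Pdgfrb. Cxcr7, with a larger estimate of 2.54, did not pass (edgeR adjusted p = 0.267).

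Levels of different genes were compared per kilobase of exon, with lengths from the GENCODE vM21 annotation of GRCm38 since the authors' own gene lengths were not at hand. In M-CSF db/+ Cxcl12 was highest at 129 normalised reads per kb. Kitl at 96.0 and Vcam1 at 94.3 followed and did not differ beyond counting error, nor did Pdgfrb at 66.7 and Cdh11 at 61.5. Cdh2 stood at 44.2, then Angpt1 at 9.37 and Pdgfra at 9.33, which did not differ, and Cxcr7 at 2.19.

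The order was another in M-CSF db/db. Cxcl12 was again highest at 395 normalised reads per kb, followed by Cdh11 at 187 and Pdgfrb at 177, which did not differ beyond counting error, and Cdh2 at 118. Vcam1 at 99.5 and Kitl at 83.3 stood behind them, and last came Cxcr7 at 17.3, Pdgfra at 16.5 and Angpt1 at 10.8, where neighbours did not differ beyond counting error. Kitl and Vcam1 thus stood above Pdgfrb, Cdh11 and Cdh2 in db/+ and below them in db/db.

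In both GM-CSF libraries Kitl was highest, at 30.0 and 28.8 normalised reads per kb in db/+ and db/db, and Vcam1 came next, at 12.8 and 13.0. Each of these steps was beyond counting error. Pdgfra and Pdgfrb were at 4.22 and 4.09 in db/+ and at 3.32 and 4.71 in db/db, and no neighbours from there down differed beyond counting error. The highest of the 9 genes per kb was therefore Cxcl12 in M-CSF and Kitl in GM-CSF.

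The genes with the profile most like that of Cxcl12 were sought among 10155 genes that reached 200 normalised reads, as the smallest Euclidean distance between centred log2 profiles over the 4 libraries. They included Pdk4 (distance 0.23), Col3a1 (0.26), Fbn1 (0.37) and Col6a2 (0.41). Col3a1, a fibrillar collagen, was at 665.8, 1669.5, 1.1 and 0 normalised reads. Pdk4, a kinase of mitochondrial fuel choice, was at 537.4, 1394.1, 1.1 and 0. The profile most like the mean of the 9 genes was that of Lama4 (0.20), a laminin of vessel and stromal basement membranes, at 114.1, 267.5, 6.7 and 9.7. It was followed by Olfml3 (0.34), Epdr1 (0.35), Arhgef17 (0.35) and Ncam1 (0.38). These distances rest on 4 libraries and describe likeness only.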

How the data were processed

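The submitters' processing notes name TopHat 1.2.0, edgeR and the builds mm8 and mm9, the last pair with no role given. The signal that the authors deposited for a gene is its number of reads scaled by a factor of the library (TMM by the authors' own naming), to 1 decimal. How reads were counted, against which annotation and strand, is not given in the sources used.

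Whole reads were recovered from the step of 1 read, which was 0.951, 0.871, 1.12 and 1.08. With a tolerance of 0.1, 100% of low values and 99.8% to 99.9% of all values came out whole. Even counts were commoner than odd ones among 1 to 10 reads (53.0% to 57.7%), so intervals used read pairs. Genes with at least 20 normalised reads in 1 library or more were tested (13642).

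Since the unit was not counts, limma 3.58.1 (additive model of genotype and culture, variance trend, 1 residual degree of freedom, prior 12.87) on log2(value + 5) was the main test, with two-sided Benjamini-Hochberg adjusted p-values at 0.05. edgeR 4.0.16 on recovered reads, DESeq2 1.42.0 size factors, scaling by total reads, other pseudocounts and other level minimums were alternatives. Scripts were tested on simulated data.

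The 9 genes and the 18 lists of partners and markers were chosen with earlier results of these data known. Besides the 9 genes, at most 6 genes of a list were named by highest mean level, plus partners that bind one of the 9 directly. Other list genes named for a value at 0, for a count of 5 or fewer, or as the mutated gene were named after their values were seen. The 5 nearest profiles were taken by distance, of which 1 is not reported here. Each of the 9 genes had a single row, and 0 per-sample columns were left unused. No p-value measures spread between animals within a group.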

Additional observations from a re-analysis of the deposited data

Results flagged for a closer look

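Pdgfra, the PDGF receptor alpha chain, had genotype differences of opposite direction in the 2 cultures. Between db/db and db/+ its log2 fold came to 0.79 in M-CSF and -0.30 in GM-CSF. Each direction rests on 1 library per genotype, the GM-CSF value on 33 and 27 reads, and the difference between the cultures was not tested. The quotient of the ratios was 2.25 with a counting interval of 0.922 to 5.62, which includes 1.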

How the results depend on the processing

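In GM-CSF, the count of genes at least 2-fold apart between genotypes (2 of 9) was 0 with a pseudocount of 20, and 1 with a level minimum of 200 or with scaling by total reads. For the genotype effect, 0 of the 9 genes passed limma and 4 passed edgeR. The genes past the threshold out of all tested (1 in the limma fit) were 2 with a pseudocount of 1, 3 with a level minimum of 200 and 103 with edgeR. They were 0 with a pseudocount of 20 (629 at an unadjusted p under 0.05), without a level minimum (795), without a variance trend (617) and with genotype as the only factor (1). For the culture effect, 9 of the 9 genes and 7787 genes in all passed limma, and without a level minimum 0 and 0 did. Cxcr7 did not pass for culture in limma without a variance trend (adjusted p = 0.103) or with culture alone (0.1001). On single reads the intervals of Kitl in M-CSF (0.770 to 0.978) and Cdh2 in GM-CSF (1.48 to 13.7) left out 1. No ratio or estimate of the 9 genes changed direction under any of these alternatives. The ratios against the stromal sum, recomputed against the median stromal marker and without Fstl1 (chosen after seeing the data), moved by less than their intervals. The cause of these changes was not tested. With 1 library per group there were no replicate numbers to pair, the additive model already takes each factor within the other, and leaving 1 library out would leave it no residual degree of freedom. Few reads limit the GM-CSF genotype comparison of Cxcl12, Angpt1, Cxcr7, Cdh2 and Cdh11, each with 5 reads or fewer in at least 1 GM-CSF library.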
